A study of Mus musculus with 12 samples.

Results

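Tuft cell markers were examined in epithelial cells of the mouse colon. The members are 8 genes chosen by symbol as markers of tuft cells, Dclk1, Trpm5, Pou2f3, Il25, Avil, Sh2d6, Gfi1b and Chat, out of 46517 genes counted in each library. All 8 symbols were found in the count tables. RNA was sequenced from intestinal epithelial cells of C57BL/6 mice aged 7 to 9 weeks, and the 12 libraries fell into 4 groups of 3. The groups were wild-type (WT) mice left untreated, WT mice given dextran sulfate sodium (DSS) for 48 h, mice of genotype Nfkb2-/- (knockout, KO) left untreated, and Nfkb2-/- mice given DSS for 48 h. DSS is a polysaccharide that injures the colonic epithelium, and Nfkb2 codes for p100, the precursor of the NF-kB protein p52. The labels name no promoter or Cre for the deletion, so the loss is not described there as limited to the epithelium. Epithelial cells were loosened from the tissue with EDTA, and the labels describe no sort for tuft cells. Total counts ranged from 5595909 to 8117740 per library. Counts of Nfkb2 ranged from 211 to 346 over the 6 WT libraries and from 87 to 143 over the 6 KO libraries, so the groups did not overlap. Every KO library has a later library number than every WT library, so library order and genotype cannot be told apart. The summed level of 8 genes of the epithelium in general was 21690 to 33030 CPM (counts divided by the TMM-scaled library size) in the 12 libraries.

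Tuft cells are rare chemosensory cells of the epithelium. Their identity depends on the transcription factor Pou2f3. Receptors of the taste type and the succinate receptor act through a G protein, phospholipase C and calcium release to open the cation channel Trpm5, and the cells then release the cytokine IL-25, acetylcholine and eicosanoids. IL-25 acts on innate lymphoid cells, whose IL-13 in turn makes crypt cells produce more tuft cells. In bulk samples like these, fewer tuft cells and less RNA per tuft cell cannot be told apart.

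The markers were near the lower limit of detection. The floor used here is 3 counts, which is 0.356 to 0.529 CPM depending on the library. Dclk1, Trpm5, Avil and Sh2d6 were at or over the floor in all 12 libraries and were the 4 members kept by the filter on low counts. Pou2f3, Gfi1b and Chat were at or over it in 6, 4 and 2 libraries, and Il25 in none. Per kilobase of annotated exon (GENCODE M21), the mean level over the 12 libraries was 1.68 CPM for Sh2d6, 1.15 for Avil, 0.704 for Trpm5, 0.388 for Dclk1, 0.192 for Pou2f3, 0.159 for Gfi1b and 0.0395 for Chat. The 2 transcription factors and the 2 effectors were thus the 4 lowest members per length. Il25, a defining product of tuft cells, was absent from the counts, and Pou2f3, their defining factor, was at 0 in 4 libraries.

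The transcription factors did not pass the filter on low counts. Pou2f3 (chromosome 9 from 43123939 to 43210369 on the minus strand of GRCm38) had 8, 5 and 1 counts in untreated WT, 0, 13 and 0 in DSS-treated WT, 0, 9 and 7 in untreated KO, and 0, 8 and 1 in DSS-treated KO. All 4 groups overlapped, and their summed counts of 14, 13, 16 and 9 had overlapping exact Poisson 95% intervals (7.65 to 23.5 for untreated WT and 4.11 to 17.1 for DSS-treated KO). These intervals hold no more than counting error, because amplified copies of a molecule are counted as separate reads. Gfi1b, a transcriptional repressor of tuft cells that also acts in erythroid cells and megakaryocytes, had 5, 0 and 6 counts in untreated WT and 5, 0 and 6 in DSS-treated KO. It had 0, 1 and 0 counts in DSS-treated WT and 0 in every untreated KO library. The groups overlapped, since 7 of the 12 libraries, at least 1 in each group, had no read. The summed counts were 11 in untreated WT and 11 in DSS-treated KO (exact Poisson 95% interval 5.49 to 19.7 for each). They were 1 in DSS-treated WT (0.0253 to 5.57) and 0 in untreated KO (0 to 3.69). Only the interval of untreated KO lay apart from those of the high groups, and these intervals too hold only counting error. In the edgeR fit without the filter, Gfi1b had an unadjusted p of 0.00256 for the interaction (edgeR adjusted p 0.123), 0.0125 for DSS in KO (edgeR adjusted p 0.207) and 0.0131 for untreated KO against WT (edgeR adjusted p 0.214). In that fit Pou2f3 had edgeR adjusted p values of 0.968 or more in all 5 comparisons. Of 10 genes of erythroid cells and megakaryocytes, 3 (Ppbp, Hbb-bt and Hba-a2) had no count in any library, and the summed level of the list was 1.64 to 4.63 CPM in untreated WT, 1.06 to 2.28 in DSS-treated WT, 1.42 to 4.03 in untreated KO and 0.888 to 4.76 in DSS-treated KO.

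**Figure D1:**
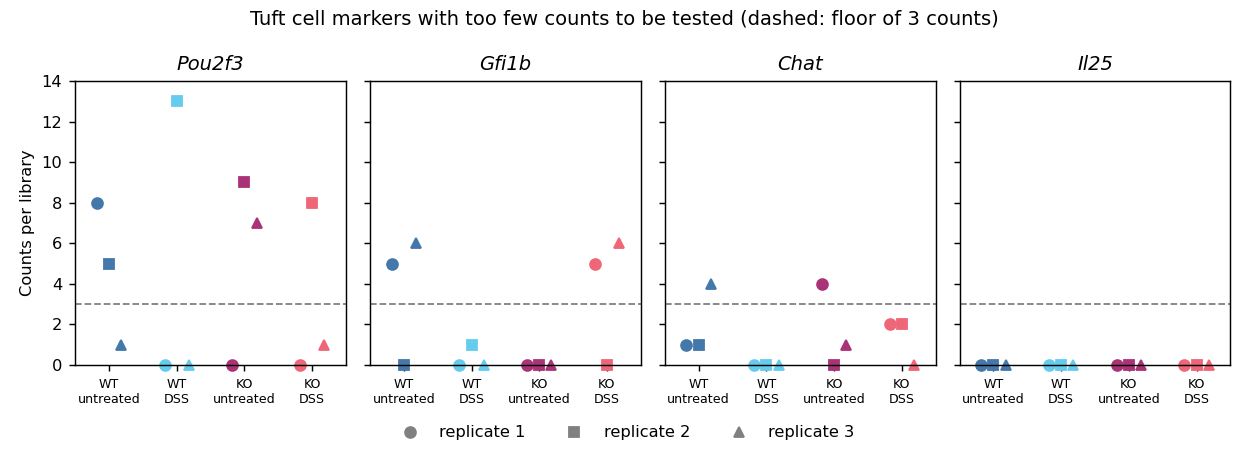
Counts per library (vertical axis) of the 4 markers not kept by the filter, by group, with 1 symbol per replicate and a dashed line at the floor of 3 counts. Pou2f3 reaches at most 13 counts, Gfi1b 6 and Chat 4, and Il25 is at 0 in all 12 libraries.

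The effector genes Il25 and Chat had the fewest counts of the members. Il25 (chromosome 14 from 54932695 to 54935837 on the plus strand) had 0 counts in all 12 libraries, which hold 83424825 counts together. Taking 3 counts as the limit, this allows a level of up to 0.0359 CPM over the series. Chat, which makes acetylcholine, had 1, 1 and 4 counts in untreated WT, 4, 0 and 1 in untreated KO, 2, 2 and 0 in DSS-treated KO, and 0 in every library of DSS-treated WT. A difference between groups was not detectable for Il25 at this depth. Chat did not pass in the unfiltered edgeR fit, where its adjusted p was lowest for DSS in WT (edgeR adjusted p 0.439). Chat is also made by enteric neurons. Among markers of neurons and glia, Stmn2, Sox10 and Prph had no count in any library. The summed level of the neuron and glia list was 0.327 to 2.31 CPM in untreated WT, 2.12 to 4.53 in DSS-treated WT, 1.95 to 3.79 in untreated KO and 2.47 to 5.12 in DSS-treated KO.

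Trpm5 (chromosome 7 from 143069153 to 143094642 on the minus strand), the channel at the end of the chemosensory cascade, had the largest interaction among the tested members. Its levels were 6.11, 6.38 and 10.02 CPM in untreated WT and 4.39, 2.93 and 0.651 CPM in DSS-treated WT. They were 1.21, 3.90 and 0.830 CPM in untreated KO and 4.94, 7.55 and 5.12 CPM in DSS-treated KO. Untreated WT and DSS-treated KO were the high groups and overlapped with each other. DSS-treated WT and untreated KO were the low groups, also overlapped with each other, and lay wholly below both high groups. The means ran from 7.51 ± 2.19 CPM (SD, n = 3) in untreated WT through 5.87 ± 1.46 in DSS-treated KO and 2.66 ± 1.89 in DSS-treated WT to 1.98 ± 1.67 in untreated KO.

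Dclk1 (chromosome 3 from 55242364 to 55539068 on the plus strand), a microtubule-associated kinase, had 6.25, 7.86 and 15.1 CPM in untreated WT and 5.15, 2.40 and 5.37 CPM in DSS-treated WT. It had 4.03, 3.29 and 2.96 CPM in untreated KO and 9.88, 1.92 and 6.91 CPM in DSS-treated KO. Untreated WT lay above DSS-treated WT and above untreated KO without overlap. DSS-treated KO was spread over most of the range and overlapped with every other group. Its replicate 2 was the lowest of all 12 libraries for Dclk1 and, among the 12, the second highest for Trpm5.

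Avil encodes advillin, an actin-binding protein of the villin family (chromosome 10 from 127000709 to 127020994 on the plus strand). It had 2.47, 5.24 and 12.5 CPM in untreated WT and 2.88, 1.73 and 2.28 CPM in DSS-treated WT. It had 1.61, 4.02 and 2.61 CPM in untreated KO and 5.29, 2.96 and 3.46 CPM in DSS-treated KO. The untreated WT mean of 6.74 ± 5.17 CPM (SD, n = 3) was the highest, but its lowest library lay within the range of each of the other groups except DSS-treated KO, below which it fell. Neighbours in the order of group means overlapped throughout, while DSS-treated KO lay wholly above DSS-treated WT. Sh2d6, an adaptor protein with an SH2 domain (chromosome 6 from 72513641 to 72521707 on the minus strand), had 4.07, 3.93 and 3.24 CPM in untreated WT and 1.36, 1.60 and 4.39 CPM in DSS-treated WT. It had 2.42, 1.58 and 1.78 CPM in untreated KO and 2.47, 3.55 and 3.60 CPM in DSS-treated KO. Untreated KO lay wholly below untreated WT and below DSS-treated KO. DSS-treated WT overlapped with those 2 higher groups through its replicate 3 alone. Its replicate 2 lay within the range of untreated KO. The mean level was highest in untreated WT and second highest in DSS-treated KO for each of Trpm5, Dclk1, Avil and Sh2d6.

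**Figure D2:**
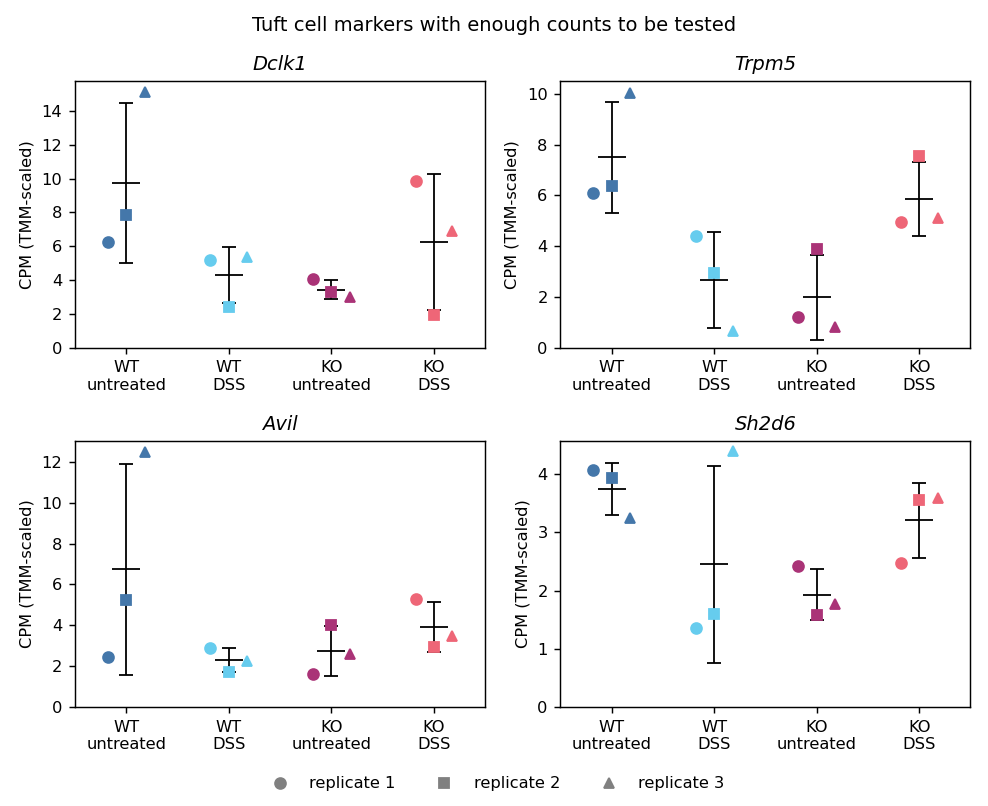
CPM (vertical axis, scaled by TMM) of the 4 tested markers in each library by group, with 1 symbol per replicate, and the mean with SD (n = 3) as a black bar. Replicate 3 of untreated WT is the highest library for Dclk1 (15.1), Trpm5 (10.02) and Avil (12.5) but not for Sh2d6 (3.24).

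Reads could be shared with neighbouring genes for some members, since the libraries carry no strand information. Exons of genes on the opposite strand cover 3.44% of the exonic bases of Trpm5 (Tssc4), 4.86% of those of Avil (Tsfm) and 0.745% of those of Dclk1. No exon of another gene overlaps Sh2d6, Pou2f3, Il25, Gfi1b or Chat. Of the 50-base words of each member's transcripts, at most 3.48% (Avil) occur in a transcript of another gene.

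The upstream sequences of Trpm5, the member with the largest interaction, and Avil, a tested member with near matches to the motif of POU factors, are shown because tuft cell genes are held to depend on Pou2f3. POU factors bind the octamer ATGCAAAT. The 250 bases before the annotated start are given 5′ to 3′ from RefSeq (GRCm38.p6), on the minus strand for Trpm5 and the plus strand for Avil, with capitals where at least 7 of 8 letters match the octamer on either strand.
Trpm5, chr7:143094643-143094892: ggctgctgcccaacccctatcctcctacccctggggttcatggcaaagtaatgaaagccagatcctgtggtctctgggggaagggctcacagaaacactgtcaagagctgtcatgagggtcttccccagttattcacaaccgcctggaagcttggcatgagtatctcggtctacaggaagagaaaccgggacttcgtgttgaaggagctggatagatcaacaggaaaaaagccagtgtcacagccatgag
Avil, chr10:127000459-127000708: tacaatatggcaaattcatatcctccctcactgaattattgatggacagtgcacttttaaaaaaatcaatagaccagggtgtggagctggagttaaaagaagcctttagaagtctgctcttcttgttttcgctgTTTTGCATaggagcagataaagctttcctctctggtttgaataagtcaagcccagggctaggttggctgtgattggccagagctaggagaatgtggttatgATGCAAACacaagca
Avil held 2 such near matches, which begin 116 and 15 bases before the start, and Trpm5 held none. Over the 7 RefSeq promoters of 6 members (2 of them of Dclk1, and none for Pou2f3 or Il25), 3 held a near match, in Avil, Gfi1b and Chat, against 16.6% of 32851 promoters of the same length. No exact octamer was in the 300-base windows of the 7 promoters, which run from 250 bases before to 50 after the start. The same held for the GFI1 core AAATCAC and the kappaB consensus of NF-kB, all on both strands. Among all promoters the shares with these motifs were 1.74%, 3.2% and 5.8%. A match is a string of letters and not a site.

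The comparison of DSS with no treatment in WT asked how the markers stood 48 h into injury. None of the 4 tested members passed the threshold, an adjusted p under 0.05 over 12522 genes by edgeR's quasi-likelihood test, which 6.3% of all tested genes did. The log2 fold changes were -1.55 for Avil (SE 0.56, edgeR adjusted p 0.144), -1.48 for Trpm5 (SE 0.60, edgeR adjusted p 0.201), -1.18 for Dclk1 (SE 0.52, edgeR adjusted p 0.249) and -0.62 for Sh2d6 (SE 0.50, edgeR adjusted p 0.615). The first 3 had an unadjusted p under 0.05, as did 17.6% of all genes, and Trpm5 and Dclk1 were lower without overlap, as were 9.96% of all genes. The 95% interval for Trpm5 ran from -2.77 to -0.20, so that the data allow a small or a large difference. DESeq2 also called none of the 4. Avil passed when replicate 1 of untreated WT, its lowest library there, was left out (log2 fold change -1.95, edgeR adjusted p 0.0444), and Trpm5 passed with no filter on low counts (-1.48, edgeR adjusted p 0.0495). Without replicate 3 of untreated WT the value was -0.74 for Avil (edgeR adjusted p 0.525) and -0.72 for Dclk1 (edgeR adjusted p 0.550). Sh2d6 ranged from -1.33 to -0.34 when a library was left out, without replicate 3 and replicate 1 of DSS-treated WT.

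In KO mice the same comparison gave values of the opposite sign. None of the 4 members passed, against 3.92% of all genes. Trpm5 had a log2 fold change of 1.56 (SE 0.61, 95% interval 0.25 to 2.87, edgeR adjusted p 0.212) and was the only member with an unadjusted p under 0.05, as 15.9% of all genes had. Dclk1, Sh2d6 and Avil had log2 fold changes of 0.85, 0.74 and 0.49 with intervals that include 0. Trpm5 and Sh2d6 were higher under DSS without overlap, as were 12% of all genes. DESeq2 called none, and with no filter on low counts Trpm5 passed (edgeR adjusted p 0.0492). Without replicate 1 of DSS-treated KO the values were 0.37 for Dclk1 and 0.22 for Avil. Without replicate 2 of untreated KO they were 2.51 for Trpm5 (edgeR adjusted p 0.0749) and 0.87 for Avil, and without replicate 1 of untreated KO that of Avil was 0.22.

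Between genotypes, the values were larger in untreated mice than under DSS. None of the 4 members passed, against 3.48% of all genes, and 3 (Trpm5, Dclk1 and Avil) had an unadjusted p under 0.05, as had 15.4% of all genes. The KO minus WT log2 fold change was -1.91 for Trpm5 (SE 0.61, 95% interval -3.22 to -0.60, edgeR adjusted p 0.113), or 0.266 of the WT level. Dclk1 stood at 0.353 of the WT level (log2 SE 0.52, edgeR adjusted p 0.151), and the log2 fold change was -1.28 for Avil (SE 0.55, edgeR adjusted p 0.268) and -0.96 for Sh2d6 (SE 0.50, edgeR adjusted p 0.397). Trpm5, Dclk1 and Sh2d6 were lower in KO without overlap, as were 9.53% of all genes. DESeq2 called Trpm5 (-1.93, adjusted p 0.0344), and edgeR called it without replicate 2 of untreated KO, its highest library in that group (-2.87, edgeR adjusted p 0.0427). With no filter on low counts Trpm5 (edgeR adjusted p 0.00655) and Dclk1 (edgeR adjusted p 0.0221) both passed.

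Under DSS the KO minus WT values were positive and smaller. None of the 4 members passed, against 3.11% of all genes, none had an unadjusted p under 0.05, as 14.6% of all genes had, and DESeq2 called none. The log2 fold changes were 1.13 for Trpm5 (SE 0.60, 95% interval -0.16 to 2.42), 0.76 for Avil, 0.53 for Dclk1 and 0.40 for Sh2d6. Trpm5 and Avil were higher in KO without overlap, as were 11.7% of all genes. These values depended on single libraries. Without replicate 1 of DSS-treated KO, Dclk1 was at 0.052 and Avil at 0.49. Dclk1 was at 0.95 without replicate 2 of that group and at 0.24 without replicate 2 of DSS-treated WT. Sh2d6 was at 0.12, 0.16 and 1.11 without replicates 1, 2 and 3 of DSS-treated WT, and Trpm5 at 0.68 without replicate 3 of that group.

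The interaction, the DSS change in KO minus that in WT, tests whether the response differed between genotypes. None of the 4 members passed, against 1.7% of all genes, and 3 had an unadjusted p under 0.05, as had 10.6% of all genes. The values were 3.04 for Trpm5 (SE 0.86, 95% interval 1.20 to 4.88, edgeR adjusted p 0.119), 2.04 for Dclk1 (SE 0.74, edgeR adjusted p 0.289), 2.04 for Avil (SE 0.79, edgeR adjusted p 0.335) and 1.36 for Sh2d6 (SE 0.71, edgeR adjusted p 0.538). Trpm5 passed with DESeq2 (3.07, adjusted p 0.0209), with no filter (3.03, edgeR adjusted p 0.00156) and without replicate 2 of untreated KO (3.99, edgeR adjusted p 0.0308). The interaction was 1.23 for Avil without replicate 3 of untreated WT (edgeR adjusted p 0.511) and 2.06 for Sh2d6 without replicate 3 of DSS-treated WT (edgeR adjusted p 0.266). The 5 comparisons share groups, and untreated WT, the highest group, enters 3 of them, so the values of a member are not independent of each other. Deviations of same-numbered samples from their group means correlated over 0.1 in every pair for DSS in KO alone. For DSS in WT each library also correlated best with its own number, with r of 0.0138 to 0.128. A fit blocked on these numbers called no member in any comparison. Its block effects are shared by both genotypes, so it cannot test a pairing within each genotype.

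**Figure D3:**
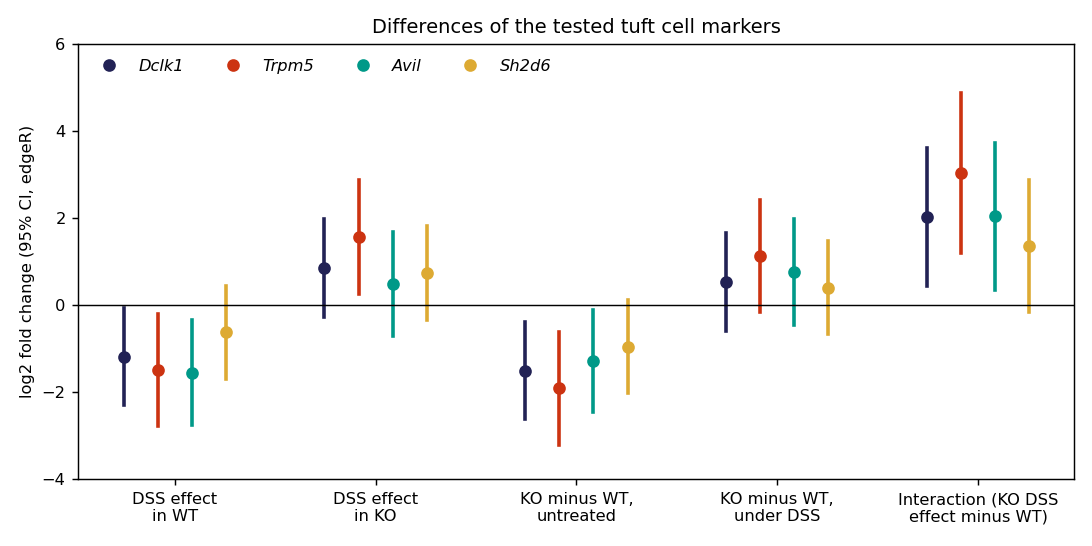
Log2 fold change (vertical axis, points) with 95% confidence interval (lines) from edgeR for the 4 tested markers in the 5 comparisons. The points lie below 0 for DSS in WT and for untreated KO against WT and above 0 in the other comparisons, where the largest is the Trpm5 interaction of 3.04.

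The biological coefficient of variation was 0.418 for Dclk1, 0.468 for Trpm5, 0.438 for Avil and 0.341 for Sh2d6, against a common value of 0.227 over all tested genes. For genes of like abundance the fitted trend gave 0.337, 0.371, 0.390 and 0.442, so Sh2d6 varied less than the trend. After the group means were removed, Dclk1 and Avil deviated together over the 12 libraries (r = 0.59) and Trpm5 and Sh2d6 in opposite directions (r = -0.76), with values from -0.37 to 0.36 for the other pairs. These are descriptions of low counts from the same libraries. Replicate 3 of untreated WT, high for Dclk1, Avil and Trpm5, also had the highest summed level of 7 crypt and stem cell genes in its group (184 CPM, against 77.2 and 90.7). The same sum was 81.7 to 102 CPM in DSS-treated WT, 158 to 182 in untreated KO and 80.9 to 96.5 in DSS-treated KO. Without replicate 3 of untreated WT, the untreated KO minus WT value was -0.48 for Avil, -1.04 for Dclk1 and -1.64 for Trpm5, and none passed. The part of crypt cells in these values was not tested.

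Genes outside the members that followed the same course were looked for by the Pearson correlation of log2 CPM with the mean of the 4 tested members over the 12 libraries. Among 11235 genes whose log2 CPM averaged 1 or more, the 8 most alike were Ncoa7 (r = 0.90), Naa30 (0.88), Flrt3 (0.88), Plekha3 (0.86), Tent5a (0.85), Crybg3 (0.84), Mblac2 (0.83) and Adora2b (0.82). The members themselves correlated with their mean at 0.50 to 0.87. None of the 8 is among the other tuft cell genes listed for this comparison.

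Of 8 further genes of chemosensory transduction, 4 were tested. Itpr2, an IP3 receptor that releases calcium from the endoplasmic reticulum and is not limited to tuft cells, fell under DSS in WT and was lower in untreated KO than in untreated WT. Itpr2 stood at 31.3 ± 3.54 CPM (SD, n = 3) in untreated WT, 16.1 ± 2.52 in DSS-treated WT, 17.8 ± 1.79 in untreated KO and 22.2 ± 3.78 in DSS-treated KO. The log2 fold change was -0.96 for DSS in WT (SE 0.20, edgeR adjusted p 0.00784) and -0.82 for untreated KO against WT (SE 0.20, edgeR adjusted p 0.0323), and the interaction was 1.28 (SE 0.28, edgeR adjusted p 0.0274). The call between untreated genotypes was lost in 4 of 6 fits that left out a library (replicate 1 of untreated WT or any untreated KO library) and in the fit of those 6 samples alone (edgeR adjusted p 0.0915), and the interaction in 8 of 12 such fits. Plcb2, the phospholipase C of taste signalling, had 1 to 25 counts in 11 libraries and 0 in the other, and did not pass. The taste receptor subunit Tas1r3 had 2 to 19 counts and did not pass. The other IP3 receptor, Itpr3, had log2 fold changes that did not pass in any comparison. Gng13, chosen after its values were seen, had no count in any library.

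Among 5 genes of eicosanoid synthesis, 3 were tested and none passed in any comparison. Alox5, 5-lipoxygenase, which starts leukotriene synthesis and is also made by leukocytes, had 4.63 to 8.02 CPM in untreated WT, 0.133 to 3.79 in DSS-treated WT, 1.30 to 1.75 in untreated KO and 2.63 to 4.23 in DSS-treated KO. Its log2 fold change was -2.16 for untreated KO against WT (SE 0.66, edgeR adjusted p 0.0956) and its interaction 2.84 (SE 0.93, edgeR adjusted p 0.213). Its group means stood in the same order as those of Trpm5. Hpgds, a prostaglandin D synthase, had 2.92 ± 0.803 CPM (SD, n = 3) in untreated WT, 2.59 ± 0.423 in DSS-treated WT, 3.45 ± 2.01 in untreated KO and 5.77 ± 1.64 in DSS-treated KO, so its highest group was not that of the members. Its log2 fold change was 0.24 for untreated KO against WT (edgeR adjusted p 0.888) and its interaction 0.90 (edgeR adjusted p 0.735). Ptgs1, cyclooxygenase 1, had -0.54 (edgeR adjusted p 0.897) and 1.71 (edgeR adjusted p 0.843) in the same comparisons. The median interaction was 1.71 over the 3 genes, 1.57 over the 4 transduction genes and 2.04 over the 4 tested members. It was -0.0065 over all 12522 genes. Of the 4 transduction genes, 3 had a positive interaction, and that of Itpr3 was -0.48. The lists were chosen with earlier results known, and a difference of a list as a set was not tested.

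Of 25 other genes of published tuft cell signatures, 21 were tested. Under DSS in WT, Lrmp, an endoplasmic reticulum membrane protein of lymphoid and tuft cells, rose (log2 fold change 0.93, SE 0.16, edgeR adjusted p 0.00204). Espn, an actin-bundling protein of microvilli that other epithelial cells also make, fell (-1.26, SE 0.20, edgeR adjusted p 0.00109). Lrmp had 28.4 ± 0.907 CPM (SD, n = 3) in untreated WT, 54.3 ± 8.18 in DSS-treated WT, 38.4 ± 2.87 in untreated KO and 37.4 ± 5.05 in DSS-treated KO, so untreated WT was its lowest group and the highest for the members. Its interaction was -0.97 (SE 0.23, edgeR adjusted p 0.0430). That call was lost with the replicate block (edgeR adjusted p 0.0876) and with no filter on low counts (edgeR adjusted p 0.0533). It was also lost in 11 of 12 fits that left out a library. Sox9, a transcription factor of crypt and tuft cells, was higher in DSS-treated KO than in DSS-treated WT (0.83, SE 0.17, edgeR adjusted p 0.0140), which was lost in 4 of 6 such fits (without replicate 1 or 3 of DSS-treated WT, or replicate 2 or 3 of DSS-treated KO). No other signature gene passed in any comparison. The median log2 fold change of the 21 genes was -0.10 for DSS in WT, 0.52 for DSS in KO, -0.18 for untreated KO against WT, 0.21 for DSS-treated KO against DSS-treated WT and 0.58 for the interaction.

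**Figure D4:**
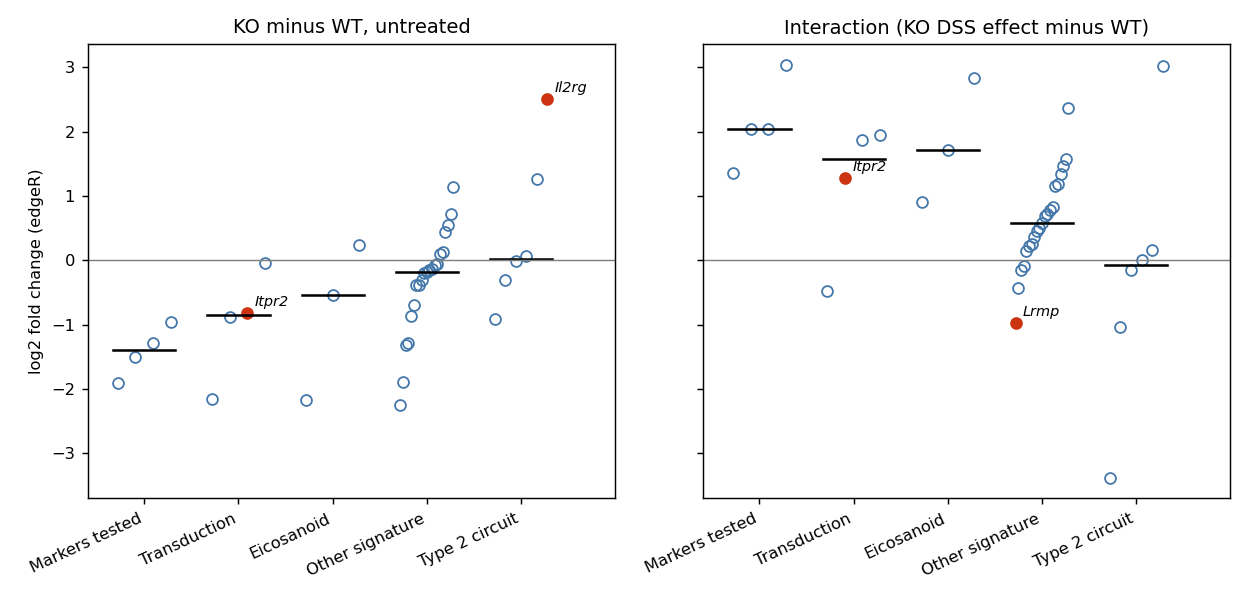
Log2 fold change from edgeR (vertical axis) of each tested gene of the 5 tuft cell lists for untreated KO minus WT (left) and the interaction (right), with filled red points for genes past the threshold and a black bar at the median of each list. The tested markers have medians of -1.39 and 2.04, and the longer signature list has medians of -0.18 and 0.58.

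The cytokines upstream of tuft cell expansion were hardly detected, while their receptors were well measured. Il13 and Il4 were chosen after their values were seen. Il13 had no count in any library, and Il4 had at most 2. The receptor chains Il13ra1 and Il4ra and their transcription factor Stat6 had 1260 to 2261, 315 to 544 and 801 to 1241 counts per library, and none passed in any comparison. Il33 had 0 to 36 counts and did not pass. Il2rg, the common gamma chain, which lymphocytes make, was higher in untreated KO than in untreated WT (4.09 ± 2.11 against 0.697 ± 0.656 CPM, SD, n = 3, edgeR adjusted p 0.0357). That call was lost with the replicate block (edgeR adjusted p 0.0570) and in 5 of 6 fits that left out a library, all but that without replicate 1 of untreated WT, and in the fit of the 6 untreated samples alone (edgeR adjusted p 0.137).

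The levels of other cells' markers also varied between the groups. The summed level of 21 leukocyte genes was 24.8 to 44.8 CPM in untreated WT, 74.0 to 79.7 in DSS-treated WT, 84.5 to 94.3 in untreated KO and 117 to 164 in DSS-treated KO. It was thus lowest in untreated WT, where the tested members were highest, and highest in DSS-treated KO, where they were second highest. From the transduction, eicosanoid and other signature lists, 21 genes were listed as also made by leukocytes. The type 2 circuit list, which holds Il2rg, was not part of that count. The summed level of 10 enteroendocrine genes was 97.2 to 137 CPM in untreated WT, 76.8 to 90.2 in DSS-treated WT, 146 to 169 in untreated KO and 118 to 131 in DSS-treated KO. As a sum, goblet cell genes had the high and low groups of Trpm5. The sum of 8 such genes was 18870 to 29940 CPM in untreated WT, 15200 to 17550 in DSS-treated WT, 13830 to 15200 in untreated KO and 26790 to 30740 in DSS-treated KO. Of the 8, 2 passed for the interaction. These were Clca1 (2.34, SE 0.22, edgeR adjusted p 5.54e-05) and the mucin gene Muc2 (0.84, SE 0.14, edgeR adjusted p 0.00456). The median of the 8 was 0.05. The means of Clca1, Muc2 and Fcgbp had the same high and low groups as the sum, but the other goblet cell genes did not. Tff3 and Atoh1 had their lowest means in untreated WT (24.9 and 52.2 CPM), and Zg16 its highest in untreated KO (337 CPM). The summed level of 10 genes of absorptive colonocytes was 17520 to 19090 CPM in untreated WT, 6545 to 6843 in DSS-treated WT, 10830 to 11540 in untreated KO and 6785 to 7403 in DSS-treated KO. Of these 10, 4 passed for the interaction. They were Tmigd1 (1.73, edgeR adjusted p 0.00133), Car1 (1.69, edgeR adjusted p 0.000198), Slc9a3 (1.14, edgeR adjusted p 0.00673) and Ceacam1 (0.61, edgeR adjusted p 0.0113). The interaction was positive for 9 of the 10, with a median of 0.94. All 10 had negative DSS values in both genotypes. The summed level of 10 stromal genes stayed at or under 7.41 CPM in every library, with Pdgfra and Lum at 0 in all. Acta2 and Pecam1 were the stromal genes tested, and neither passed in any comparison. The mean of Acta2 was 0.321 CPM in untreated WT and 2.44 in DSS-treated WT. That of Pecam1 was 0.861 CPM in untreated WT and 3.30 in DSS-treated KO. The part of these cells in the differences of the members was not tested.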

How the data were processed

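RNA of colonic epithelial cells was sequenced in 12 libraries, made with the SMART-seq2 protocol from total RNA, per the labels' protocols. The deposited values are whole-number read counts per gene, 1 column per library. The submitters' processing notes name STAR 2.5.2b, featureCounts 1.5.0 and the build GRCm38 for the deposited data, while the annotation and counting options are not given in the sources used here. Symbols were matched by Ensembl ID without version (46005 of 46517 IDs), and exons and coordinates come from GENCODE M21. No pair of replicates agreed within sampling noise (chi-square per degree of freedom 6.64 to 27.6).

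Genes were kept by filterByExpr (12522 genes, 99.8% of counts), libraries were scaled by TMM, and 1 coefficient per group was fitted over all 12 libraries with edgeR 4.0.16 in R 4.3.3. Contrasts were tested by the two-sided quasi-likelihood F test with Benjamini-Hochberg adjustment over all genes kept, at a threshold of 0.05. SE is the log2 fold change divided by the root of F. A prior count of 2 entered log2 CPM. The scripts were tested on simulated data. Alternatives were size factors (RLE), DESeq2 1.42.0, no filter, the replicate number as a block, the 6 samples compared alone, and leaving out each library. The design text calls the 3 samples of a group biological replicates. Titles number the samples in each group, and deviations of same-numbered samples correlated over 0.1 in every pair for DSS in KO alone (r = 0.204, 0.106 and 0.127).

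All 8 members are named, with genes of 4 other tuft cell lists that passed and at most 6 others per list among those with the highest mean CPM (Gng13, Il13 and Il4 fall outside this rule), and the 8 genes most correlated with the members. Members and lists were chosen with earlier results of these data known. Near matches to the octamer were searched after the exact search had found none.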

Additional observations from a re-analysis of the deposited data

Results flagged for a closer look

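Among the tested members and the genes of the other tuft cell lists, the DSS change differed between genotypes for 2, by edgeR's interaction term. The goblet cell genes Clca1 and Muc2 and the colonocyte genes Car1, Slc9a3, Tmigd1 and Ceacam1, named above, also passed this term. Itpr2 had an interaction of 1.28 and Lrmp of -0.97. Of 12 fits that each left out a library, the call was kept in 4 for Itpr2 (without replicate 2 or 3 of untreated WT, replicate 1 of DSS-treated WT or replicate 2 of DSS-treated KO) and in 1 for Lrmp (without replicate 3 of untreated WT). With 3 samples in a group, no library was tested as standing apart from its group.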

How the results depend on the processing

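The 20 log2 fold changes of the 4 tested members gave 240 values over the alternatives. All 240 kept their sign, and 10 passed the threshold, 5 of them in the fit with no filter and 3 in fits that left out a library. DESeq2 called 1 member (Trpm5) for untreated KO against WT and 1 (Trpm5) for the interaction. With no filter on low counts 1 member passed for DSS in WT, 1 for DSS in KO, 2 for untreated genotypes and 1 for the interaction, and the unfiltered fit tested 23136 genes. When a library was left out, 0 to 1 members passed for DSS in WT, for untreated genotypes and for the interaction, and 0 in the other comparisons. Counts of all genes past the threshold were 789, 491, 436, 390 and 213 in the order of the comparisons. For DSS in KO, untreated genotypes, genotypes under DSS and the interaction they were 800, 790, 661 and 360 with DESeq2 and 776, 703, 642 and 356 with no filter. With the 6 samples compared alone they were 467 for DSS in WT and 195 for untreated genotypes. Leaving out a library gave 483 to 958, 235 to 302, 212 to 725, 160 to 231 and 152 to 350. The highest counts for DSS in WT, untreated genotypes and the interaction came without replicate 3 of untreated WT. The count moved by over 1.5 times without each of the 6 libraries for DSS in KO and for genotypes under DSS, without each DSS-treated WT library for DSS in WT, without each library but replicate 1 of untreated WT for untreated genotypes, and without replicate 3 of untreated WT alone for the interaction. With the replicate block 696, 409, 345, 290 and 186 genes passed, and the block changed no call of a member. In the comparisons of genotypes the numbers only name samples (r between -0.175 and -0.0103), and for DSS in WT each library correlated best with its own number, with r of 0.0138 to 0.128. The cause of these differences was not tested. Depth limits 4 of the 8 members, which did not pass the filter, and Il25 has no test at all.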
